A study of Homo sapiens with 6 samples.

Results

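The comparison set SH-SY5Y cells depleted of CSA against SH-SY5Y cells with a control hairpin. It used 4 of the 6 libraries of the series, 2 in each group, and 17818 of the 32575 genes listed, namely those with a mean of at least 10 scaled counts in either group. SH-SY5Y is an established human neuroblastoma line with neuroblast-like cells. Cells were transduced with a lentivirus carrying a short hairpin RNA, against CSA or a control, selected with puromycin and kept in culture for 2 to 3 weeks, per the labels' protocols. The labels call the groups WT and CSAmut, whereas the protocols describe hairpins, so the second group is called the CSA knockdown. All 4 libraries therefore come from transduced, puromycin-selected cells, and the sources used here do not say whether the 2 libraries of a group were separate transductions. Nor do they give the hairpin sequences or the number of hairpins per target, so a difference between the groups cannot be told apart from an effect of the hairpin on other transcripts. The 2 CSB knockdown libraries of the series entered the fit only to share its estimate of the spread.

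CSA, the product of ERCC8, is a WD40-repeat protein that serves as the substrate receptor of a cullin ubiquitin ligase with DDB1. When RNA polymerase II stalls at a DNA lesion, CSB (ERCC6) brings this ligase to the polymerase, and nucleotide excision repair of the transcribed strand follows. Inherited loss of either protein causes Cockayne syndrome, in which growth fails and the nervous system degenerates.

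Values are scaled counts, which are gene reads over a size factor of their library. They carry no correction for gene length, so levels of different genes are not compared. A gene rose or fell where the adjusted p of limma's test was below 0.05. Parentheses beside a gene give the difference of log2(scaled count + 1), CSA knockdown minus control, ± its SE (n = 2 libraries per group). Counts of risen and fallen members of a list stand against 16.0% of all genes tested that rose and 18.9% that fell. Square brackets give the range of such a count when each of the 6 libraries was omitted in turn. They name the omitted library where its absence moved the count by more than 1.5 times. Unless stated otherwise, a gene said to rise or fall was called in that direction under each alternative set of processing choices as well. The alternatives include the omission of each library, so the choice of such genes favoured groups that do not overlap, and that separation is no added evidence.

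The 4 libraries held 19368272 to 22308609 reads assigned to genes, of which 6.24 to 6.51% came from mitochondrial transcripts. All 16 SH-SY5Y identity markers passed the filter in these cells, among them PHOX2A, HAND2 and GATA3, while tyrosine hydroxylase (TH) was low, at 13.9 and 20.3 in the controls. Control replicate 2 alone held reads of the globin genes HBB (373) and HBA2 (289), which stood at 0 in the other 5 libraries.

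ERCC8, chromosome 5 from 60873831 to 60945073 on the minus strand (hg38), stood at 219 and 217 in controls and 61.8 and 57.2 after knockdown. Both knockdown libraries lay below both controls (log2 fold change -1.86 ± 0.13, adjusted p = 6.7e-10). ERCC6 stood at 615 and 593 in controls and 618 and 611 after knockdown, and its groups overlapped (log2 fold change 0.03 ± 0.09, adjusted p = 0.849). ERCC6 shares its place and strand with PGBD3 and ERCC6-PGBD3, and ERCC8 overlaps GNL3LP1 and AC104113.3, so reads of these genes cannot be fully separated. Of the partners of CSA and the other genes of transcription-coupled repair, 34 of 35 were tested, and 3 rose [2 to 4] and 4 fell [2 to 6, 2 without either control], against 16.0% of all genes tested that rose and 18.9% that fell. ERCC8 is one of the 4 falls, and the other 3 were small and not kept under each alternative: the TFIIH subunit GTF2H1 (-0.27 ± 0.07), XAB2 (-0.22 ± 0.06) and the cullin CUL4A (-0.21 ± 0.06). UVSSA, which stabilizes CSB at the stalled polymerase, rose from 862 and 872 to 1096 and 1192 (0.40 ± 0.06). The ligase adaptor DDB1 stood at 8418 and 8638 in controls and 8499.9 and 8529.6 after knockdown, with overlapping groups and no call. Of the subunits of RNA polymerase II and its initiation and elongation factors, 39 of 40 were tested, and 5 rose [2 to 6, 2 without control replicate 1, 3 without control replicate 2] and 7 fell [3 to 8, 3 without either control], with a median of -0.07. The elongation factor ELL2 rose from 43.8 and 67.5 to 115 and 125 (1.13 ± 0.20), and PAF1 (-0.34 ± 0.06) and the histone chaperone SSRP1 (-0.28 ± 0.05) fell. The shares that fell in the polymerase list and in all genes tested were close, and edgeR called 8 falls in it.

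Across the transcriptome, 2857 genes rose (16.0%) and 3366 fell (18.9%) in the CSA knockdown, 34.9% of those tested. Calls kept under each alternative numbered 1164 rises (6.53%) and 1732 falls (9.72%). At least 2-fold changes were fewer, with 312 rises (1.75%) and 490 falls (2.75%). The count of calls went down to 4221 without control replicate 2, where 1814 rose and 2407 fell, and to 3779 with limma without its trend option, where 1634 rose and 2145 fell. The median log2 fold change over all genes tested was 0.00. The size factors of the libraries largely set this centre, so it does not show whether total transcript output changed. In genes with a mean of 1000 or more in the higher group, 23.2% rose and 27.2% fell, against 6.46% and 8.73% in genes of 10 to 100, where the median SE was 0.32 instead of 0.06. Among 13687 protein-coding genes 2453 rose and 3153 fell, a majority of falls. Calls were fewer for their number among 1051 long intergenic noncoding RNAs (116 rose and 74 fell) and 1270 antisense RNAs (131 rose and 57 fell). In both noncoding types rises outnumbered falls, but the share that rose was below the 16.0% of all genes tested. The share that fell was likewise below 18.9% in both. The strand setting of the counting is not given, so antisense values can hold reads of their partners. Fold changes were centred alike by genomic span: among protein-coding genes with a level of 100 or more, the median was 0.00 in the fifth with the shortest genomic span (up to 11537 bases) and -0.01 in the fifth with the longest (from 103146 bases). Of the 2274 genes of each of these groups, 431 and 508 rose and 539 and 602 fell.

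**Figure D1:**
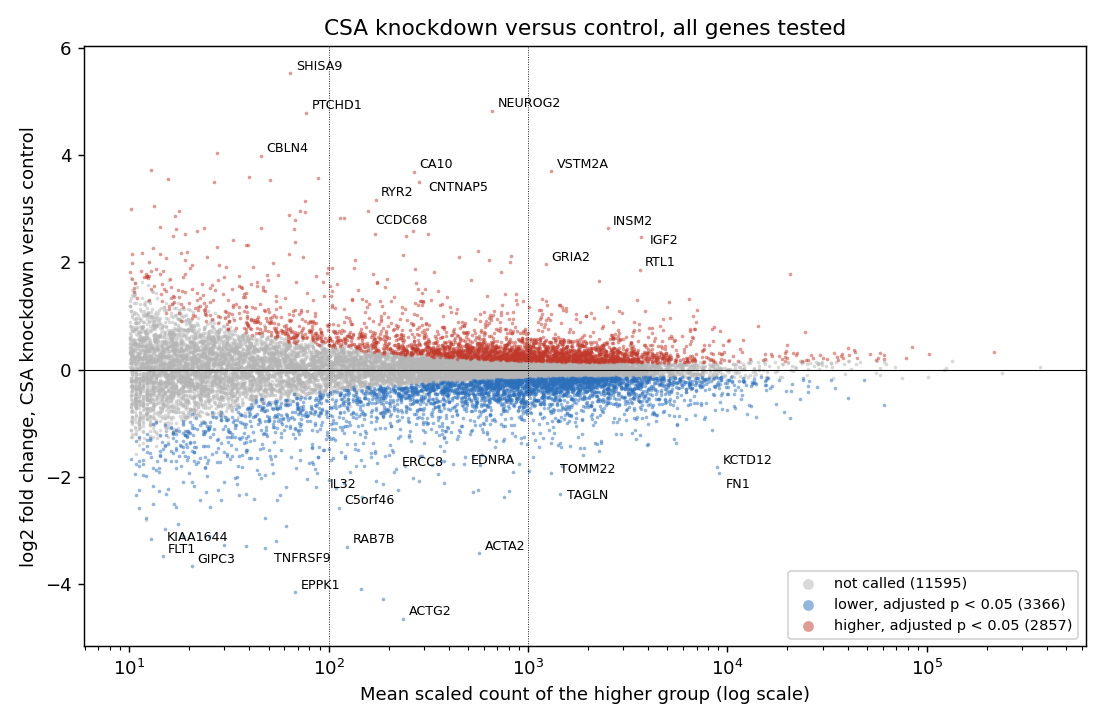
Each point is 1 of the 17818 genes tested, with the mean scaled count of its higher group on a log axis (x) and its log2 fold change, CSA knockdown minus control (y); red points rose (2857), blue points fell (3366) and grey points were not called, and dotted lines mark the levels 100 and 1000. Labelled are ERCC8 and, among calls kept under each alternative, genes of largest change in each of the 3 bands of level, from SHISA9 (5.52) to ACTG2 (-4.64).

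Among the largest changes were falls of smooth muscle type actins and rises of transcription factors and surface proteins of neurons. ACTG2, a smooth muscle actin on chromosome 2 from 73892314 to 73919865 on the plus strand, stood at 229.8 and 244 in controls and 7.59 and 9.54 after knockdown. ACTA2, its close relative on chromosome 10 from 88935074 to 88991390 on the minus strand, stood at 564 and 575 in controls and 42.3 and 64.8 after knockdown. In both genes the knockdown libraries lay far below the controls (ACTG2: log2 fold change -4.64 ± 0.22, adjusted p = 8.8e-13). The fall of ACTA2 was -3.42 ± 0.14. The 2 actins are nearly identical in sequence and reads can be split between them, and ACTA2 overlaps FAS, STAMBPL1 and ACTA2-AS1. TAGLN, an actin-bundling protein of smooth muscle, stood at 1384 and 1502 in controls and 288 and 289 after knockdown. Its groups did not overlap either (log2 fold change -2.32 ± 0.07, adjusted p = 3.1e-15).

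The fall extended to nearly the whole contractile list: 36 of 41 genes were tested, and 0 rose [0] and 32 fell [30 to 32] by limma (0 rises at an unadjusted p below 0.05, 0 with edgeR and 0 with DESeq2), or 88.9% against 18.9% of all genes, with a median of -0.55. Calponin CNN1 (-2.92 ± 0.29), leiomodin LMOD1 (-1.90 ± 0.19), the LIM protein PDLIM1 (-1.61 ± 0.09) and myosin light chain kinase MYLK (-1.23 ± 0.07) fell, all proteins that bind or drive actin filaments. So did abundant cytoskeletal genes of most cells, such as non-muscle myosin MYH9 (-0.76 ± 0.06), tropomyosin TPM1 (-0.72 ± 0.05) and filamin FLNA (-0.54 ± 0.06). SRF, the transcription factor that drives many of these genes, went from 1577 and 1572 to 1094 and 1153 (-0.49 ± 0.06). Its coactivator gene MKL2 fell (-0.81 ± 0.07), while MKL1 was not called (0.14 ± 0.07, adjusted p = 0.137). The 4 tested members without a call were MKL1, MYL6, TPM3 and TAGLN3.

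SRF binds a sequence known as the CArG box (consensus CC, 6 bases of A or T, GG, searched on both strands). Matches to it are in capitals. Promoters of 3 members that fell are shown, chosen because they held a match. Each runs from 250 bases before the start of transcription to 50 after it, 5′ to 3′, from RefSeq (GRCh38.p14): ACTG2 at chr2:73892758-73893057 on the plus strand, CNN2, another calponin, at chr19:1026358-1026657 on the plus strand, and MYLK at chr3:123620499-123620798 on the minus strand.
ACTG2: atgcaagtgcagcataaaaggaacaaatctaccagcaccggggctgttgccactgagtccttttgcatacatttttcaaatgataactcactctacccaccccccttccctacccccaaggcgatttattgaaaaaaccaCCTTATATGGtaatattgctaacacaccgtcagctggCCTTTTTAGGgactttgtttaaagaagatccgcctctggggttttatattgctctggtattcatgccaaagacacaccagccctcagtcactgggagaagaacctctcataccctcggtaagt
CNN2: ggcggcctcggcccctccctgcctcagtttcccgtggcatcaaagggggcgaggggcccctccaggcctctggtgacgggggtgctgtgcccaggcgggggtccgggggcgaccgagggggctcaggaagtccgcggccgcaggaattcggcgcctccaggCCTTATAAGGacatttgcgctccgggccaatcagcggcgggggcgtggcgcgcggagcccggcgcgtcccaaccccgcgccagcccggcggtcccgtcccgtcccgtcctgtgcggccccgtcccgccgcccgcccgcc
MYLK: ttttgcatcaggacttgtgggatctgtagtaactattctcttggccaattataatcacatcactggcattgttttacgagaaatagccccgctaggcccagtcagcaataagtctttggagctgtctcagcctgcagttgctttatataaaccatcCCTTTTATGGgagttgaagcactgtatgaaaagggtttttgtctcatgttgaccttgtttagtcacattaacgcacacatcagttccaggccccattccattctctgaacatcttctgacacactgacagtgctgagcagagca
ACTG2 has 2 matches, beginning 110 and 73 bases before the start, and CNN2 and MYLK have 1 each, 89 and 94 bases before it. Of 33 tested members with a promoter in the table, 8 held a match (24.2%), against 1.60% of the 27305 genes of the table. The 8 were ACTG2, CNN2, MYLK, TPM4, FLNA, ACTN1, SRF and SMTN, so ACTA2, TAGLN and CNN1 were not among them. Each of the 8 fell, but so did 29 of the 33. SRF drives many genes of this list, so the share describes the list and not the knockdown. A part of SRF in the fall was not tested. A match is a description of the sequence and does not show that a factor binds there.

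Targets of YAP and TEAD, the transcriptional effectors of the Hippo pathway that respond to cell spreading and tension, were lower as well. Of this list, 28 of 30 were tested, and 1 rose [0 to 1, 0 without either control] and 18 fell [16 to 18], or 64.3%, with a median of -0.45. The matricellular gene CYR61 stood at 786 and 737 in controls and 145 and 148 after knockdown (-2.37 ± 0.08). Its relative CTGF stood at 20.9 and 27.0 in controls and 7.59 and 4.77 after knockdown (-1.81 ± 0.30). Knockdown libraries lay below both controls in each case. ANKRD1 (-1.80 ± 0.15), a cardiac and muscle ankyrin repeat protein, fell too, as did YAP1 itself (-1.09 ± 0.10), TEAD1 (-0.63 ± 0.05) and TEAD2 (-0.54 ± 0.07). AMOTL2 (-0.09 ± 0.07) and F3 (-0.02 ± 0.22) were not called, and 1 member, WWC1, rose (0.22 ± 0.08), but not with one of the controls left out.

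TEAD factors bind the letters GGAATG. The promoters of CTGF (CCN2 in RefSeq) at chr6:131951323-131951622 on the minus strand and ANKRD1 at chr10:90921038-90921337 on the minus strand are shown. Both were chosen because they held a match, and matches on either strand are in capitals.
CCN2: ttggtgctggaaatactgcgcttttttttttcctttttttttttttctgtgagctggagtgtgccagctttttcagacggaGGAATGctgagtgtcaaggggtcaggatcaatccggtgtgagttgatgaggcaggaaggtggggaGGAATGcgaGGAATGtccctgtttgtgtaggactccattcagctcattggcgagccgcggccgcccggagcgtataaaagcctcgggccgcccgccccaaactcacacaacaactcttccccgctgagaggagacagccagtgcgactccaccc
ANKRD1: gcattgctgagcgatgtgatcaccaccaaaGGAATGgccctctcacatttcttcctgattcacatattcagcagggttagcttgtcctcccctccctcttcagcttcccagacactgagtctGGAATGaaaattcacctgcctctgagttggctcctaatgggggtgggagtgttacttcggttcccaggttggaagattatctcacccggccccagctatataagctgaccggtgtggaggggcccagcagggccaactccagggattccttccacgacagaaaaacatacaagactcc
CCN2 has 3 matches, beginning 169, 104 and 95 bases before the start, and ANKRD1 has 2, at 220 and 128 bases. Of 22 tested members of the list with a promoter given, 9 held a match (40.9%), against 16.7% of all genes of the table. Among the 9 were AXL (0.25 ± 0.28) and AMOTL2, which were not called, while CYR61 was not among them. The list is one of TEAD targets, so this share describes the list and not the knockdown.

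**Figure D2:**
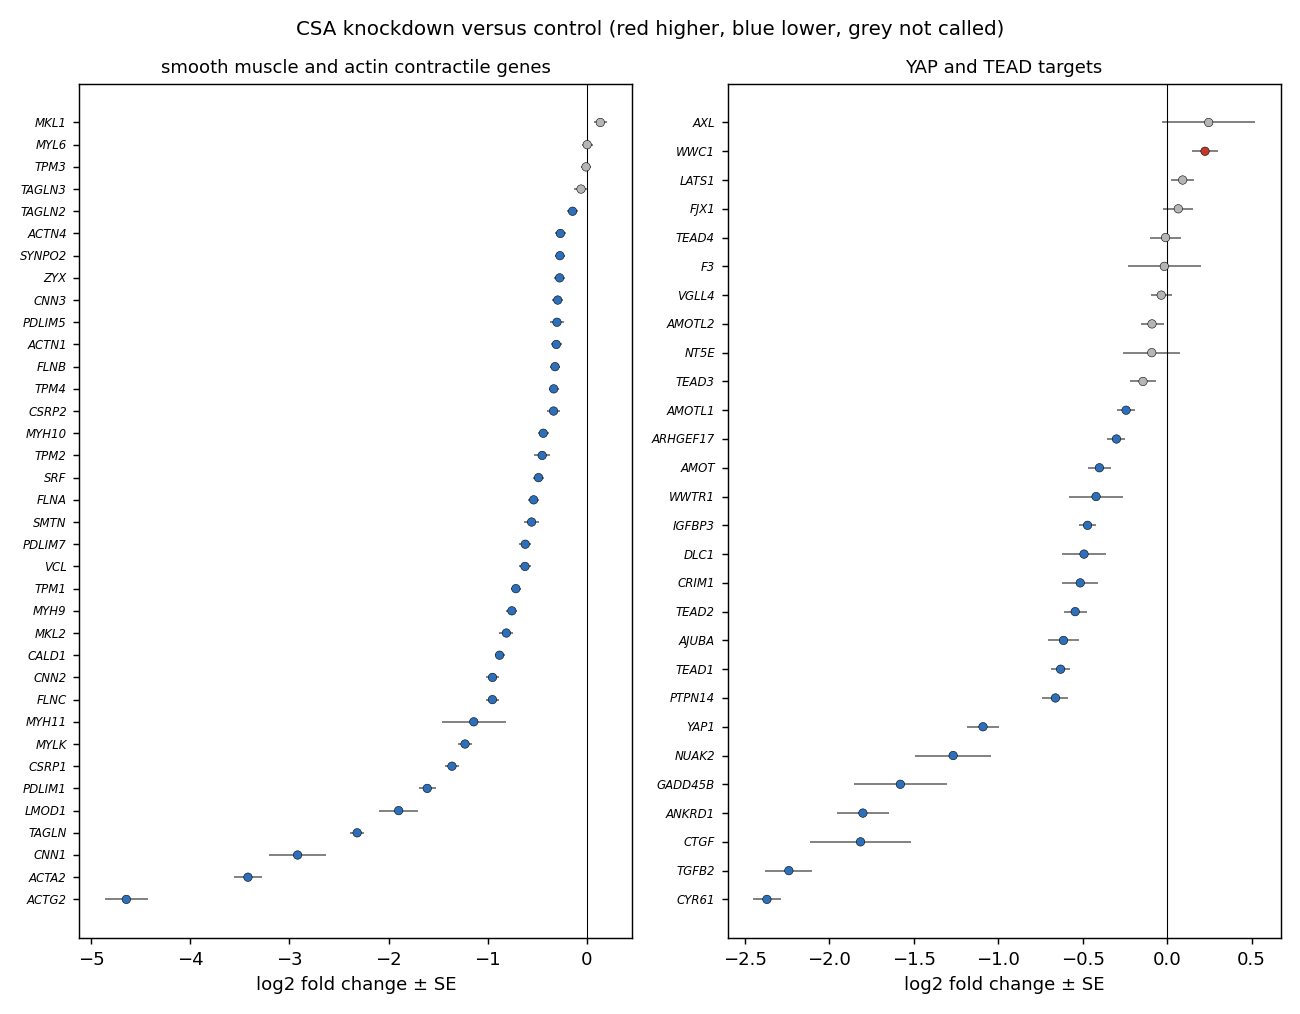
Points are log2 fold changes, CSA knockdown minus control, with SE bars for each tested member of the contractile list (left, 36 genes) and the YAP and TEAD list (right, 28 genes); red rose, blue fell and grey was not called. Nearly all contractile members lie left of 0, from ACTG2 (-4.64) to TAGLN2 (-0.14) among those called.

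Genes of the TGF-beta and BMP pathway, whose ligands drive matrix production and control neural crest fate, fell in the main: 35 of 43 were tested, and 2 rose [2] and 26 fell [22 to 28], or 74.3%, with a median of -0.47. The ligand TGFB2 stood at 219 and 225 in controls and 46.6 and 45.8 after knockdown (-2.24 ± 0.14). TGFB3 stood at 231 and 197 in controls and 45.5 and 69.6 after knockdown (-1.90 ± 0.16). The 2 rises were the BMP receptor BMPR1B, at 154 and 153 in controls and 648 and 626 after knockdown (2.04 ± 0.14), and SMAD1 (0.36 ± 0.09). The BMP-responsive homeobox gene MSX2 stood at 515 and 547 in controls and 111 and 107 after knockdown (log2 fold change -2.28 ± 0.09, adjusted p = 4.0e-14).

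Collagen genes went the same way: 23 of 41 genes were tested, and 0 rose [0] and 14 fell [13 to 14] by limma (1 rises at an unadjusted p below 0.05, 0 with edgeR and 0 with DESeq2), with a median of -0.57. COL4A1, a basement membrane chain, went from 2251 and 2397 to 895 and 949 (-1.33 ± 0.06), and COL6A3 (-2.04 ± 0.24), COL1A1 (-0.93 ± 0.07) and COL3A1 (-0.92 ± 0.06) fell. COL6A1 stood at 3117 and 3044 in controls and 2963 and 3160.4 after knockdown and was not called. FN1, which encodes the matrix glycoprotein fibronectin, stood at 9023 and 9012 in controls and 2485 and 2254 after knockdown, again with the groups far apart (log2 fold change -1.93 ± 0.06, adjusted p = 1.6e-15). Of the integrins and laminins, 34 of 38 were tested, and 6 rose [3 to 6, 3 without control replicate 2] and 16 fell [10 to 15, 10 without control replicate 1]. ITGA11 (-1.45 ± 0.20) and the heparan sulfate proteoglycan HSPG2 (-0.92 ± 0.07) fell, while LAMA4 (1.18 ± 0.21), ITGA4 (0.68 ± 0.10) and ITGA1 (0.63 ± 0.06) rose. Of the metalloproteinases and their inhibitors, 38 of 46 were tested, and 8 rose [5 to 7, 5 without control replicate 1] and 21 fell [18 to 21], with SERPINE2 (-1.85 ± 0.25) and ADAMTS12 (-1.62 ± 0.20) lower and MMP15 (0.82 ± 0.09) higher. Of the proteoglycans and heparan sulfate enzymes, 41 of 49 were tested, and 6 rose [4 to 9] and 16 fell [13 to 18], among them 2 glypicans of the cell surface. GPC3 stood at 835 and 837 in controls and 225 and 222 after knockdown (-1.90 ± 0.07), and GPC4 fell too (-1.79 ± 0.17).

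**Figure D3:**
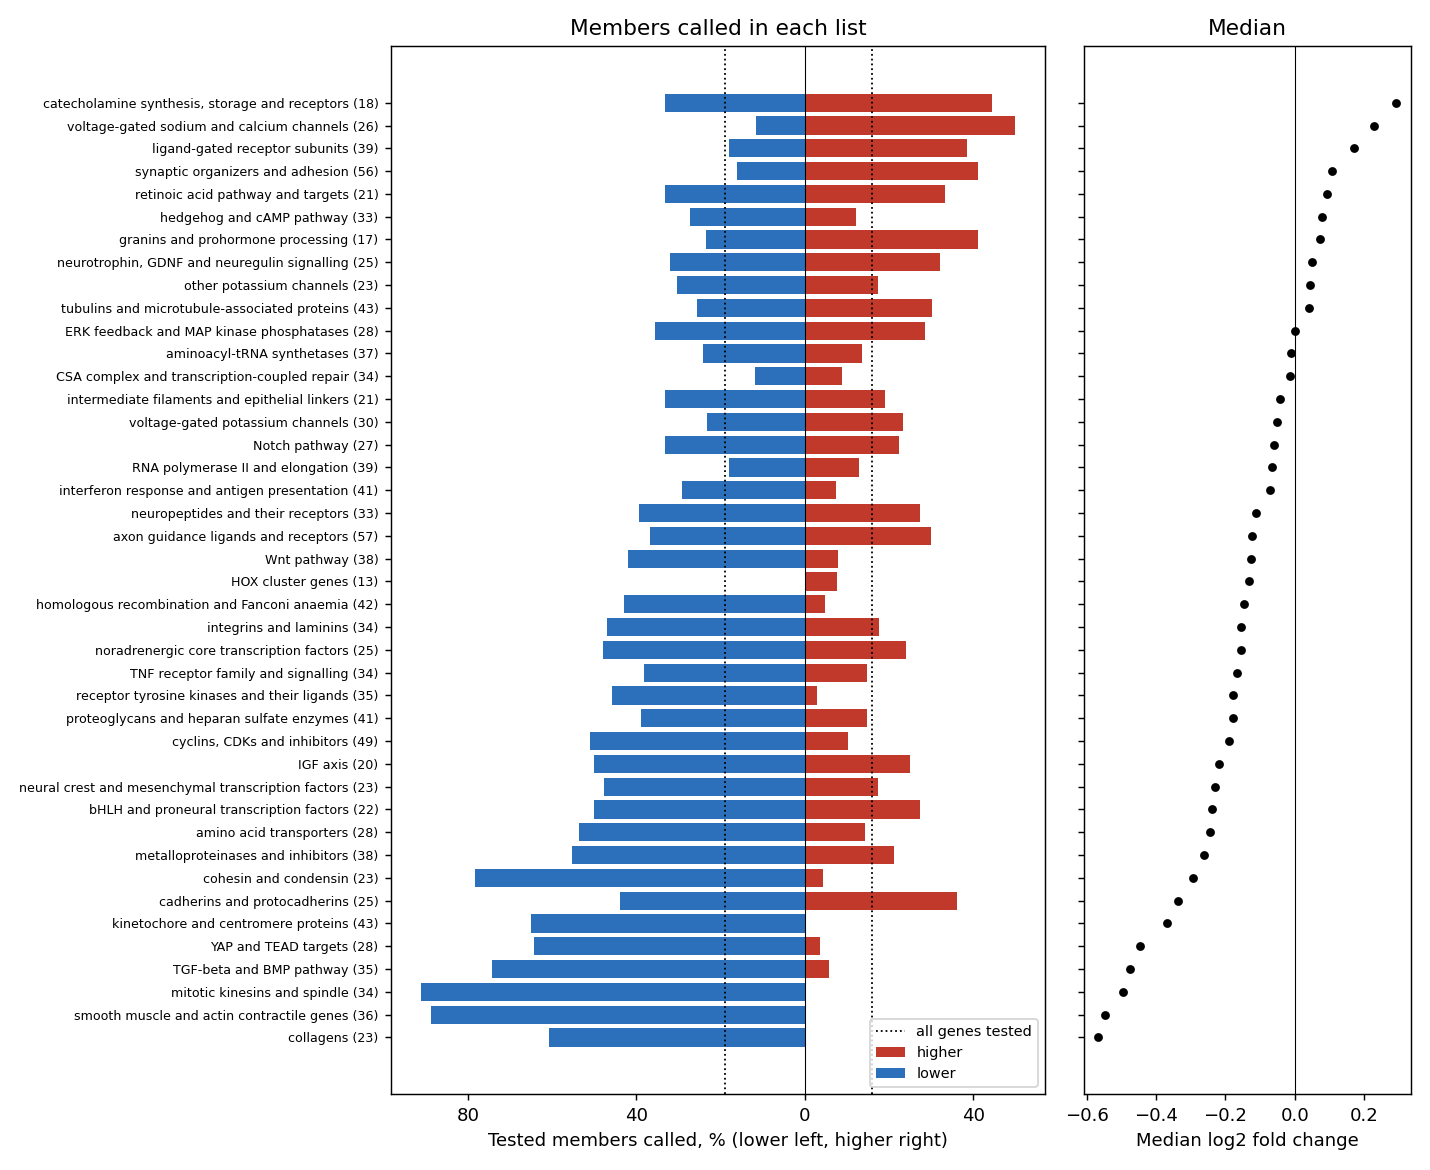
Left, the percent of tested members of each list that fell (blue, to the left) and rose (red, to the right), with the number tested in parentheses and dotted lines at the shares of all genes tested (18.9% and 16.0%); right, the median log2 fold change of the tested members. Mitotic, contractile and collagen lists lie at the bottom with medians near -0.5, and catecholamine and sodium or calcium channel lists at the top.

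Transcription factors of neuronal commitment moved in 2 directions. NEUROG2, a proneural basic helix-loop-helix factor on chromosome 4 from 112513516 to 112516172 on the minus strand, stood at 17.9 and 28.0 in controls and 643 and 684 after knockdown. It was low in both controls and far higher in both knockdown libraries (log2 fold change 4.83 ± 0.32, adjusted p = 1.9e-10). NEUROG2 overlaps RP11-402J6.1, whose reads cannot be fully separated from its own. INSM2, a neuroendocrine zinc finger factor, stood at 399.8 and 406 in controls and 2506 and 2502 after knockdown, with libraries of a group almost equal (log2 fold change 2.63 ± 0.10, adjusted p = 4.1e-14). EBF1, an early B-cell factor family member that acts downstream of proneural factors, stood at 111 and 98.4 in controls and 452 and 451 after knockdown (2.10 ± 0.12). Of the whole list of basic helix-loop-helix and proneural factors, 22 of 40 were tested, and 6 rose [5 to 6] and 11 fell [8 to 12], and the other 18 members were below the filter or not listed. The E protein TCF4 (0.34 ± 0.05) and the zinc finger factor MYT1 (0.52 ± 0.06) also rose.

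All 4 ID genes fell, ID1 from 1709 and 1866 to 781 and 724 (-1.25 ± 0.06), with ID2 (-0.90 ± 0.06), ID3 (-1.03 ± 0.06) and ID4 (-0.65 ± 0.10). ID proteins bind E proteins without binding DNA, and so hold back proneural factors. HES1, a repressor downstream of Notch, stood at 219.8 and 194 in controls and 68.3 and 76.3 after knockdown (-1.50 ± 0.13). HEY1 fell as well (-0.62 ± 0.07). Of the Notch pathway as a whole, 27 of 28 were tested, and 6 rose [5 to 6] and 9 fell [7 to 8], with the receptor NOTCH1 (-0.98 ± 0.09), the coactivator MAML2 (-1.27 ± 0.13) and the glycosyltransferase LFNG (-0.91 ± 0.08) lower, and the noncanonical ligand DLK1 (0.94 ± 0.07) and the secretase subunit PSEN2 (0.35 ± 0.08) higher.

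**Figure D4:**
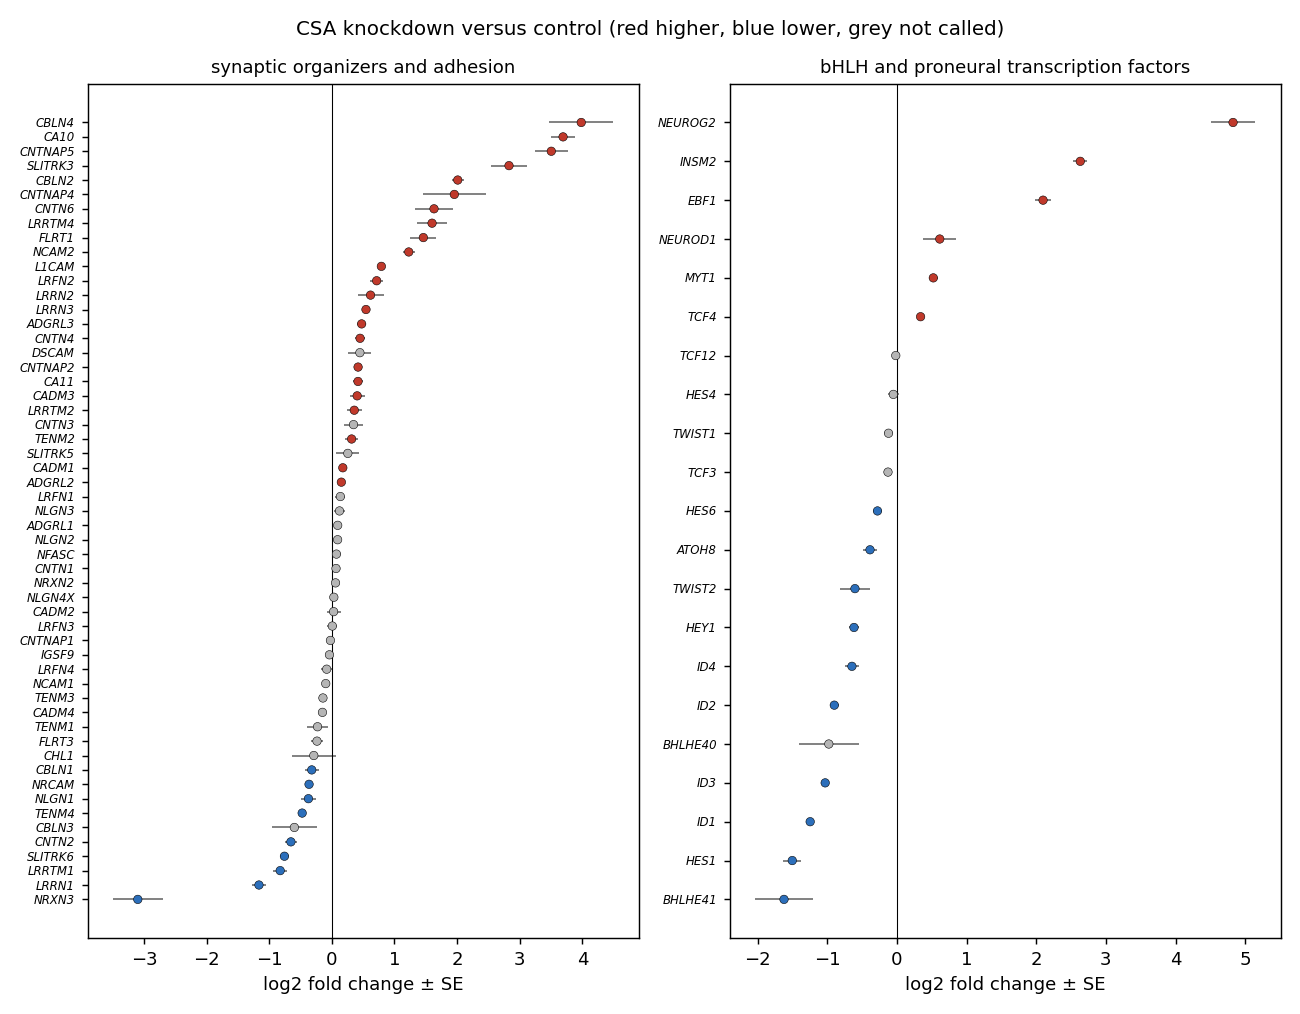
Points are log2 fold changes, CSA knockdown minus control, with SE bars for tested members of the synaptic organizer list (left) and the basic helix-loop-helix list (right), leaving out members not reported here; red rose, blue fell and grey was not called. NEUROG2 stands at 4.83 and HES1 and the ID genes between -1.50 and -0.65.

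Core transcription factors of the noradrenergic neuroblastoma state changed by less than 2-fold. Their list also counts the receptor genes RET and ALK, which are not transcription factors. Of 25 tested, 6 rose [5 to 6] and 12 fell [9 to 13], with a median of -0.16. SATB1 (-0.65 ± 0.05), TBX2 (-0.63 ± 0.05), MYC (-0.53 ± 0.06), ISL1 (-0.40 ± 0.06) and GATA3 (-0.31 ± 0.05) fell. The receptor tyrosine kinases RET, at 5566 and 5591 in controls and 9189 and 9208 after knockdown (0.72 ± 0.05), and ALK (0.62 ± 0.06), both expressed in sympathetic neuroblasts, and the factor TFAP2B (0.53 ± 0.05) rose. PHOX2A (0.02 ± 0.05) was not called. Of the neural crest and mesenchymal factors, 23 of 30 were tested, and 4 rose [3 to 5] and 11 fell [8 to 11]. Besides MSX2, the repressor SNAI2 (-1.26 ± 0.11) and the AP-1 member FOSL1 (-1.67 ± 0.23) fell, and SOX6 rose (1.03 ± 0.14).

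More genes of synapse building rose than fell: of the synaptic organizers and adhesion molecules, 56 of 63 were tested, and 23 rose [17 to 22] and 9 fell [7 to 11], or 41.1% higher against 16.0% of all genes, with a median of 0.11. CNTNAP5, a neurexin-like protein of the contactin-associated family, stood at 19.9 and 28.9 in controls and 263 and 303 after knockdown (log2 fold change 3.50 ± 0.26, adjusted p = 9.1e-10). Its groups did not overlap, and neither did those of CA10, a secreted ligand of neurexins, at 23.9 and 16.4 in controls and 266 and 269.9 after knockdown (3.69 ± 0.19). The cerebellins, which bridge neurexins to postsynaptic receptors, included CBLN2, at 206 and 196 in controls and 830.3 and 793 after knockdown (2.01 ± 0.10), and CBLN4 (3.98 ± 0.51). CBLN1 fell (-0.32 ± 0.11), a call not kept under each alternative. SLITRK3, an organizer of inhibitory synapses, stood at 14.9 and 15.4 in controls and 121 and 107 after knockdown (2.83 ± 0.29). The adhesion molecules NCAM2 (1.23 ± 0.10) and L1CAM (0.79 ± 0.06) rose. Against this, NRXN3 fell from 25.9 and 24.1 to 2.17 and 1.91 (-3.10 ± 0.40), whereas NRXN2 (0.06 ± 0.06) was not called.

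Among subunits of ligand-gated receptors and their auxiliary proteins, 39 of 61 were tested, and 15 rose [11 to 15] and 7 fell [6 to 7], with a median of 0.17. GRIA2, the AMPA receptor subunit that limits calcium entry, stood at 323 and 305 in controls and 1272 and 1190.2 after knockdown (log2 fold change 1.97 ± 0.08, adjusted p = 1.0e-13). SHISA9, an AMPA receptor partner, had 1 read in the 2 control libraries and 126 in the knockdown, a ratio of 131 (exact 95% interval 23.0 to 5196, counting error only). SHISA9 passed the filter through the knockdown group alone and was named for its large change, so the interval is no test of the rise. Kainate receptor subunits split, with GRIK2 higher (1.23 ± 0.10) and GRIK3 lower (-1.33 ± 0.08). The GABA receptor subunit GABRA4 fell from 30.8 and 27.0 to 5.42 and 3.81 (-2.43 ± 0.41). GABRB1 fell from 16.9 and 13.5 to 4.34 and 0.954 (-2.32 ± 0.53). Both levels were low, and these GABA receptor genes overlap at their ends, so their reads cannot be fully separated.

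More genes of voltage-gated sodium and calcium channels, which shape action potentials, rose than fell: 26 of 36 were tested, and 13 rose [10 to 13] and 3 fell [3 to 4]. The sodium channel SCN3A stood at 621 and 560.4 in controls and 1213 and 1075 after knockdown (0.95 ± 0.09), and the calcium channel subunit CACNA2D1 rose as well (0.37 ± 0.06). The T-type calcium channel CACNA1G fell from 366 and 339 to 94.3 and 87.7 (-1.94 ± 0.10), with SCN4B (-1.11 ± 0.10) and SCN9A (-0.64 ± 0.09). RYR2, a calcium release channel of the endoplasmic reticulum, stood at 18.9 and 17.4 in controls and 189 and 155 after knockdown (log2 fold change 3.17 ± 0.27, adjusted p = 9.1e-09). Of the voltage-gated potassium channels, 30 of 42 were tested, and 7 rose [4 to 7, 4 without either control] and 7 fell [5 to 8]. That was 23.3% in each direction, against 16.0% and 18.9% of all genes tested. Of the other potassium channels, 23 of 33 were tested, and 4 rose [4 to 5], or 17.4%, and 7 fell [4 to 7, 4 without control replicate 1], or 30.4%. KCNH8 (1.41 ± 0.10), KCNH6 (1.27 ± 0.16) and the ATP-sensitive channel subunit KCNJ11 (1.51 ± 0.17) rose, and KCNAB1 (-1.22 ± 0.19) and KCNK3 (-0.59 ± 0.06) fell.

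Genes of the catecholamine pathway rose at several steps: 18 of 29 were tested, and 8 rose [7 to 8] and 6 fell [5 to 7], with a median of 0.29. The vesicular monoamine transporter SLC18A1 stood at 193 and 183 in controls and 861 and 789 after knockdown (log2 fold change 2.13 ± 0.09, adjusted p = 2.4e-13). The noradrenaline transporter SLC6A2 stood at 2077 and 2134 in controls and 4989 and 5145 after knockdown (1.27 ± 0.05). Both knockdown libraries exceeded both controls in each. Dopamine beta-hydroxylase DBH (0.81 ± 0.05), the cofactor enzyme GCH1 (0.89 ± 0.09) and aromatic amino acid decarboxylase DDC (0.53 ± 0.06) rose. TH, the first enzyme of the pathway, went from 13.9 and 20.3 to 5.42 and 2.86 (-1.84 ± 0.47), at a level near the filter and not kept under each alternative. The receptor ADRA2A (-2.08 ± 0.11) and the oxidase MAOB (-0.69 ± 0.09) fell.

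Neuropeptide genes went both ways: 33 of 62 genes were tested, and 9 rose [6 to 9] and 13 fell [10 to 13]. NPY, a peptide of sympathetic neurons, stood at 595 and 641 in controls and 1506 and 1363 after knockdown (1.21 ± 0.07). Its receptor gene NPY2R rose (1.64 ± 0.18). VIP stood at 3988 and 4025 in controls and 1554 and 1520.1 after knockdown (-1.38 ± 0.05). The pentraxin NPTX2 fell as well (-1.38 ± 0.06). Of the genes of granins and prohormone processing, 17 of 22 were tested, and 7 rose [6 to 9] and 4 fell [4], with the granins CHGB (1.09 ± 0.06) and SCG2 (1.01 ± 0.05) among the rises. Of the tubulins and microtubule-associated proteins, 43 were tested, and 13 rose [11 to 15] and 11 fell [9 to 12]. STMN4 (0.96 ± 0.07) and the axonal motor KIF5C (0.54 ± 0.05) rose. KIF21B, a kinesin of neurons, fell from 811 and 791 to 158 and 175 (log2 fold change -2.26 ± 0.08, adjusted p = 1.5e-14). The tubulin TUBA1C fell (-1.01 ± 0.12). The neurofilament genes NEFL (0.77 ± 0.05) and NEFM (0.66 ± 0.06) rose, and keratin KRT18 (-1.71 ± 0.20) and the cytolinker EPPK1, at 67.6 and 68.5 in controls and 2.17 and 3.81 after knockdown (-4.14 ± 0.32), fell.

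Axon guidance genes were split: 57 of 65 genes were tested, and 17 rose [8 to 19, 8 without control replicate 2] and 21 fell [17 to 26]. EFNB2, an ephrin, stood at 751 and 688 in controls and 2202 and 2341 after knockdown (log2 fold change 1.66 ± 0.07, adjusted p = 1.0e-13). The receptor ROBO2 rose (1.21 ± 0.08). RGMA (-1.36 ± 0.13) and UNC5D (-1.72 ± 0.32) fell. Of the cadherins and protocadherins, 25 of 38 were tested, and 9 rose [7 to 10] and 11 fell [9 to 11]. PCDH1 (1.17 ± 0.07) and FAT1 (0.94 ± 0.06) rose, and PCDH10, at 591 and 588 in controls and 199 and 192 after knockdown (-1.59 ± 0.10), and PCDH17 (-0.96 ± 0.08) fell.

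Genes of cell division fell broadly, with no member of the 2 mitotic lists higher. Of the mitotic kinesins and spindle proteins, 34 were tested, and 0 rose [0] and 31 fell [30 to 31] by limma (0 rises at an unadjusted p below 0.05, 0 with edgeR and 0 with DESeq2), or 91.2%, with a median of -0.49. KIF15 went from 979 and 975 to 570.1 and 557 (-0.79 ± 0.07). Of the kinetochore and centromere proteins, 43 were tested, and 0 rose [0] and 28 fell [24 to 30] by limma (0 rises at an unadjusted p below 0.05, 0 with edgeR and 0 with DESeq2), with a median of -0.37. SKA2, part of the complex that couples kinetochores to microtubules, stood at 1409 and 1291 in controls and 564 and 627 after knockdown (-1.18 ± 0.07), the largest fall of that list. CENPF fell too (-0.71 ± 0.06). Of the cohesin and condensin genes, 23 were tested, and 1 rose [0 to 1, 0 without control replicate 1] and 18 fell [15 to 19]. The condensin subunits SMC4 (-0.83 ± 0.06) and NCAPD2 (-0.79 ± 0.05) and the cohesin acetyltransferase ESCO2 (-0.76 ± 0.08) fell.

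More regulators of the cycle fell than rose: 49 of 51 were tested, and 5 rose [4 to 7] and 25 fell [16 to 23, 16 without control replicate 2]. That was 10.2% higher and 51.0% lower, against 16.0% and 18.9% of all genes tested, with a median of -0.19. CDK2, the kinase of entry into S phase, stood at 745 and 721 in controls and 403 and 419 after knockdown (-0.83 ± 0.08). The repressors E2F7 (-0.83 ± 0.09) and E2F8 (-0.77 ± 0.10) fell. CCNE1 (0.51 ± 0.08), a partner of CDK2, and CCNG2 (0.32 ± 0.05), a cyclin of cells that leave the cycle, rose. Of the genes of homologous recombination and the Fanconi anaemia pathway, 42 were tested, and 2 rose [0 to 2, 0 without CSA replicate 1 or either control] and 18 fell [11 to 20, 11 without control replicate 2], with BARD1 (-0.64 ± 0.10), RECQL (-0.63 ± 0.07) and XRCC2 (-0.60 ± 0.06) lower. In bulk RNA, fewer dividing cells and less of these transcripts per cell cannot be told apart, and the same holds for each other gene group.

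Growth factor genes changed in several families. IGF2, which overlaps IGF2-AS and MIR483, stood at 718 and 613 in controls and 3586 and 3769.8 after knockdown (log2 fold change 2.47 ± 0.09, adjusted p = 1.5e-14). PAPPA2, a protease that frees IGF from its binding proteins, stood at 10.9 and 23.1 in controls and 130.1 and 109.7 after knockdown (2.83 ± 0.36). Of the IGF axis, 20 of 25 were tested, and 5 rose [5 to 6] and 10 fell [8 to 11]. The falls included PAPPA (-1.19 ± 0.10), HTRA1 (-1.63 ± 0.07) and IGFBP7 (-1.86 ± 0.31). Another imprinted gene that rose was RTL1, which derives from a retrotransposon and lies on chromosome 14 from 100880655 to 100884847 on the minus strand, at 966 and 1028 in controls and 3721 and 3541 after knockdown (log2 fold change 1.86 ± 0.09, adjusted p = 6.5e-13). Of the receptor tyrosine kinases and their ligands, 35 of 46 were tested, and 1 rose [0 to 2, 2 without CSA replicate 2, 0 without either CSB library or either control] and 16 fell [11 to 16], with KIT, at 167 and 179 in controls and 42.3 and 38.1 after knockdown (-2.08 ± 0.14), and PDGFD (-1.50 ± 0.17) lower. FLT1, a receptor of VEGF, fell from 30 reads in the controls to 1 in the knockdown, a ratio of 0.0345 (exact 95% interval 0.00085 to 0.208). FLT1 passed the filter through the controls alone, and the interval carries counting error only. Of the neurotrophin, GDNF and neuregulin genes, 25 of 31 were tested, and 8 rose [6 to 8] and 8 fell [7 to 9]. The artemin receptor GFRA3 rose (1.75 ± 0.31) together with RET, and the neurotrophin receptors NTRK3 (-0.93 ± 0.07) and NGFR (-0.99 ± 0.13) fell.

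More Wnt pathway genes fell than rose: 38 of 51 genes were tested, and 3 rose [1 to 3, 1 without CSA replicate 2 or control replicate 1] and 16 fell [13 to 18]. The antagonist DKK2 stood at 954 and 897 in controls and 384 and 331 after knockdown (-1.37 ± 0.07). The receptor FZD4 fell (-1.22 ± 0.12) and FZD6 rose (0.53 ± 0.10). Feedback genes of ERK signalling did not move together (28 of 31 were tested, and 8 rose [6 to 9] and 10 fell [9 to 11]), with DUSP8 (1.30 ± 0.06) and SPRY2 (1.12 ± 0.06) higher and FOSL1 and DUSP2 (-1.37 ± 0.16) lower. Nor did genes of the retinoic acid pathway (21 of 29 were tested, and 7 rose [5 to 7] and 7 fell [5 to 7]), whose binding protein CRABP1 fell (-1.05 ± 0.10). Of the hedgehog and cAMP genes, 33 of 42 were tested, and 4 rose [4 to 8, 8 without CSA replicate 1] and 9 fell [5 to 10, 5 without control replicate 1]. That was 12.1% and 27.3%, against 16.0% and 18.9% of all genes tested. PTCHD1 stood at 2.98 and 0.965 in controls and 90.0 and 64.8 after knockdown (4.79 ± 0.44). ARHGAP36, an inhibitor of protein kinase A, rose (0.97 ± 0.06), and the hedgehog transducer SMO fell (-0.59 ± 0.06).

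Several immune-type genes fell. B2M, the light chain of HLA class I molecules, stood at 3288 and 3354 in controls and 1439 and 1475 after knockdown (log2 fold change -1.19 ± 0.05, adjusted p = 3.7e-13). Of the interferon and antigen presentation list, 41 of 53 were tested, and 3 rose [2 to 4] and 12 fell [10 to 12]. STAT2 rose (0.46 ± 0.06), and IFITM3 fell (-1.07 ± 0.18). The cytokine IL32 stood at 162 and 133 in controls and 30.3 and 24.8 after knockdown (log2 fold change -2.38 ± 0.22, adjusted p = 2.9e-08). Of the TNF receptor family and its signalling genes, 34 of 43 were tested, and 5 rose [2 to 6, 2 without control replicate 2] and 13 fell [8 to 13, 8 without control replicate 1]. TNFRSF9 fell from 48.7 and 47.3 to 2.17 and 6.68 (-3.31 ± 0.47), and TNFRSF21 rose (0.74 ± 0.09).

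Of the amino acid transporters, 28 of 32 were tested, and 4 rose [4] and 15 fell [13 to 15]. SLC7A5, the large neutral amino acid transporter of growing cells, stood at 2740.2 and 2623 in controls and 1281 and 1440.0 after knockdown (-0.98 ± 0.06). The cystine transporter SLC7A11 fell (-1.97 ± 0.32) and the glutamate transporter SLC1A2 rose (0.94 ± 0.13). Of the aminoacyl-tRNA synthetases, 37 were tested, and 5 rose [3 to 5, 3 without control replicate 2] and 9 fell [7 to 11]. These shares (13.5% and 24.3%) were near those of all genes tested (16.0% and 18.9%). YARS (-0.49 ± 0.06) and GARS (-0.46 ± 0.06) fell and QARS rose (0.38 ± 0.05). Of 13 HOX genes tested, 1 rose [0 to 2, 2 without CSA replicate 1, 0 without CSA replicate 2 or either control] and 0 fell [0 to 1, 1 without CSA replicate 2] by limma (0 falls at an unadjusted p below 0.05, 0 with edgeR and 0 with DESeq2).

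Some of the largest changes belonged to no list. TOMM22, a receptor of the mitochondrial outer membrane import complex on chromosome 22 from 38681948 to 38685421 on the plus strand, stood at 1292 and 1301 in controls and 339 and 339 after knockdown. The libraries of each group were nearly equal and the groups lay almost 4-fold apart (log2 fold change -1.93 ± 0.07, adjusted p = 1.5e-14). Its partners, looked up after this value was seen, moved far less: TOMM20 stood at 13556 and 13640.1 in controls and 12446 and 12658 after knockdown (-0.12 ± 0.05). TOMM40 stood at 2799.9 and 2821 in controls and 2596 and 2897 after knockdown (-0.04 ± 0.06), and neither was called. KCTD12, an auxiliary subunit of GABA-B receptors, stood at 8789.6 and 8977 in controls and 2476 and 2551 after knockdown (log2 fold change -1.82 ± 0.05, adjusted p = 8.8e-16). The endothelin receptor EDNRA stood at 982 and 1038 in controls and 283 and 260.4 after knockdown (-1.89 ± 0.07). The small GTPase RAB7B stood at 126 and 121 in controls and 13.0 and 10.5 after knockdown (-3.29 ± 0.20). At levels below 100, KIAA1644 fell (-3.29 ± 0.36), and GIPC3 fell from 42 reads to 2, a ratio of 0.0493 (0.0058 to 0.19). C5orf46 stood at 103 and 123 in controls and 22.8 and 14.3 after knockdown (-2.57 ± 0.24). Among the rises, VSTM2A, a secreted immunoglobulin-domain protein on chromosome 7 from 54542325 to 54571080 on the plus strand, stood at 108 and 91.6 in controls and 1306 and 1305 after knockdown (log2 fold change 3.70 ± 0.11, adjusted p = 8.8e-16), a gene that overlaps VSTM2A-OT1. CCDC68 stood at 21.9 and 17.4 in controls and 166 and 151 after knockdown (2.96 ± 0.38). Of noncoding genes, the overlapping transcripts RP11-175K6.1 (3.59 ± 0.50) and RP11-175K6.2 rose, the latter from 2 reads to 54 (ratio 28.0, 7.38 to 236.9), and their reads cannot be fully separated. In each gene of this paragraph other than TOMM40 the 2 groups did not overlap, TOMM20 included, which was not called. The choice of the other genes favoured this, since a call had to hold with any library omitted. GIPC3 and RP11-175K6.2 passed the filter through their higher group alone, and their intervals carry counting error only.

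**Figure D5:**
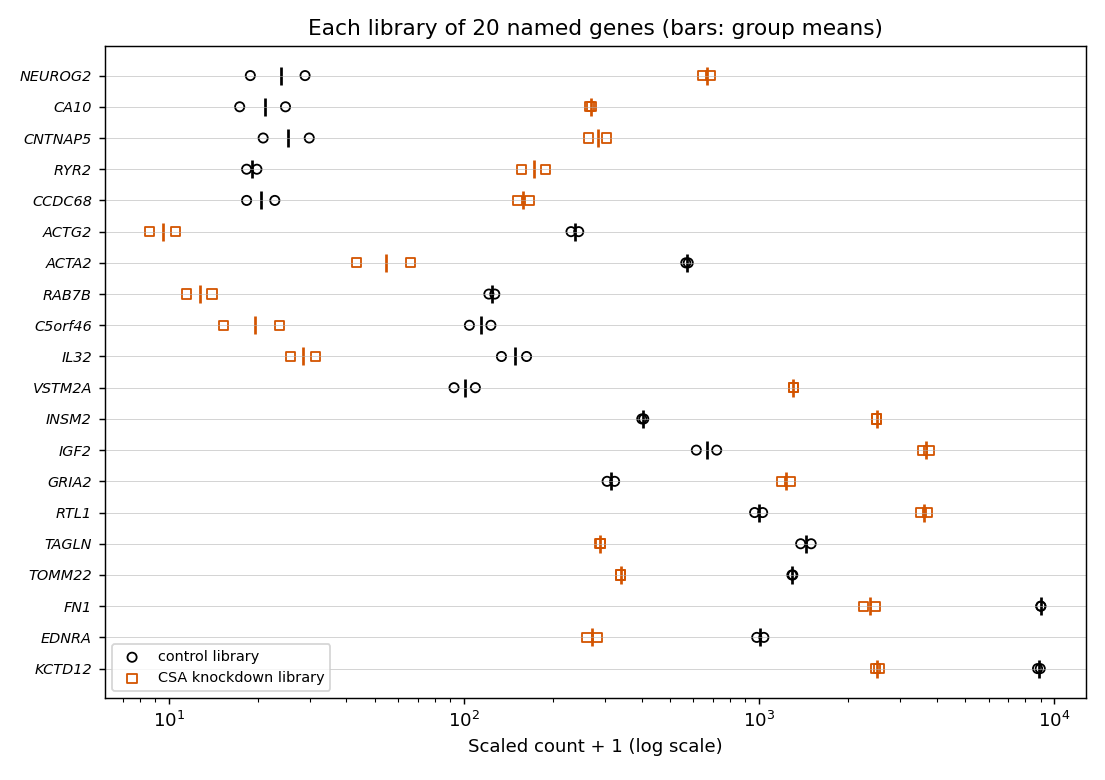
For 20 genes, the 5 largest rises and 5 largest falls at levels of 100 to 1000 and at 1000 or more among calls kept under each alternative, each symbol is 1 library (circles control, squares CSA knockdown), the bars are group means and the x axis is the scaled count + 1 on a log scale. The groups do not overlap in any of these genes, which the choice of the genes favoured, since a call had to hold with any library omitted. Libraries of a group lie further apart in some genes, such as ACTA2 after knockdown (42.3 and 64.8) and NEUROG2 in controls (17.9 and 28.0).

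Markers of other cell types were low or absent in part, and some of those that passed the filter changed. Of 13 leukocyte markers, 3 passed the filter and 0 were called by limma (0 rises at an unadjusted p below 0.05, 0 with edgeR and 0 with DESeq2) (0 falls at an unadjusted p below 0.05, 0 with edgeR and 0 with DESeq2). Of 12 endothelial markers, 4 passed and 2 fell [1 to 2, 1 without control replicate 2], with CLDN5 at 29.8 and 28.0 in controls and 10.8 and 10.5 after knockdown (-1.36 ± 0.32). The defining markers PTPRC, CDH5 and KDR lay at 4 scaled counts or fewer in each of the 4 libraries. Of 13 fibroblast markers, 12 passed, 7 fell [5 to 7] and 1 rose [0 to 1, 0 without CSA replicate 1 or either CSB library or either control], with the falls led by S100A4 (-1.53 ± 0.13), COL1A1 and COL3A1. The summed level of that list was 26977 and 25689 in control cells and 19109 and 19515 in the knockdown. The list shares COL1A1, COL1A2 and COL3A1 with the collagen list, so its fall is partly that of the same genes. Its 10 other members summed to 17749 and 16802 in control cells and 14172 and 14850 after knockdown. The part of such cells in the fall of the contractile, collagen and TGF-beta genes was not tested. Of 15 Schwann and glial markers, 6 passed and 2 fell [1 to 3, 1 without control replicate 2], among them PMP22 (-0.44 ± 0.07). Of 13 epithelial markers, 6 passed, CLDN4 (0.67 ± 0.15) and EPCAM (0.75 ± 0.26) rose and KRT18 fell. The call of EPCAM was not kept under each alternative.

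The CSB knockdown shares the control libraries, so its values are given only beside those of the CSA knockdown, for genes chosen after they were seen. NEUROG2 stood at 0 and 0.825 there, INSM2 at 14.3 and 15.7, IGF2 at 50.6 and 47.9 and RTL1 at 146 and 187, all below the controls, while they lay above the controls in the CSA knockdown. IL32 stood at 25.3 and 28.9, TNFRSF9 at 6.61 and 4.13, PCDH10 at 133 and 138 and CDK2 at 429 and 410.0, below the controls as in the CSA knockdown. KCTD12 stood at 19764 and 20236, EDNRA at 2367 and 2397 and ID1 at 4611 and 4397, above the controls, where the CSA knockdown lay below them. ACTG2, at 76.0 and 55.3, and TAGLN, at 741 and 802, lay between the controls and the CSA knockdown. VSTM2A, at 131 and 127, and TOMM22, at 1075 and 1028, lay nearer to the controls than to the CSA knockdown.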

How the data were processed

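Messenger RNA of SH-SY5Y cells was sequenced in 3 groups of 2 libraries, from 1 µg of total RNA each. HISAT2 2.0.4, the build hg38 and FastQC are named per the submitters' processing notes. The sources used here do not give the counter, its strand setting, the annotation or the way of normalization. The deposited columns are headed FPKM, but the values are a signal that the authors made without gene length: in each library 100% were whole multiples of the smallest value (tolerance 0.01 of a step), that is, reads divided by one size factor. Reads were recovered by that division, and a gene missing from a library was taken as 0. Recovered reads numbered 19368272 to 26758162 over the 6 libraries; a gene with few reads has a wide error, which the SE carries.

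The log2(scaled count + 1) values of the 6 libraries were fitted with limma 3.58.1 under R 4.3.3, using its trend option, with 3 residual degrees of freedom, for genes with a mean of at least 10 in the control or CSA group. Benjamini-Hochberg adjustment ran over these genes. Since separate cultures are not stated, p-values reflect only how these libraries vary, which may be technical. The fits were also run on counts simulated with known changes and a fixed spread, which checks the code and not how these libraries vary. Alternatives were a replicate block, 4 libraries only, other pseudocounts and filters, TMM, upper quartile and total read scaling, no trend, removal of a gene length trend, edgeR 4.0.16, DESeq2 1.42.0 (both on recovered reads) and omission of each library. Named were ERCC8, ERCC6, the 5 largest rises and falls in each of 3 bands of level (10 to 100, 100 to 1000, 1000 or more) and up to 3 per direction and list among genes called alike in the main fit and each alternative; other list members named for their role were chosen after their values were seen, as were TOMM20, TOMM40 and the globin genes. The members, lists and tests were chosen with earlier results of these data known, and lists have no test of their own. Promoters are RefSeq's. Intervals of read ratios are exact (95%), with the reads of a group pooled. They belong to genes named for their large change that passed the filter through their higher group alone, so they are no test of that change. Some list members are counted but not reported here by name.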

Additional observations from a re-analysis of the deposited data

How the results depend on the processing

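The 6223 calls (2857 higher, 3366 lower) became 3779 (1634 and 2145) with limma without the trend, and DESeq2 called 1901 higher. Leaving out 1 library gave 4221 to 6316 calls in all, 1814 to 2917 higher and 2316 to 3399 lower, the lowest totals without control replicate 1 (4230) or 2. The other alternatives stayed within 1.5 times of the main counts, and the share of rises among calls lay between 43.0 and 47.7%. The fall of ERCC8 was called under each alternative (adjusted p up to 0.00272), and so were the 30 genes named by band of level, by the rule that named them. ERCC6, not called in any fit, had a log2 fold change of -0.00031 without control replicate 2 and 0.0509 without control replicate 1. Libraries with the same replicate number did not deviate together (correlations of -0.03 for control and CSA knockdown, -0.01 for control and CSB knockdown and -0.0047 for the 2 knockdowns), so the number was not taken as a pairing; with it as a block, 5975 genes were called, 2732 higher and 3243 lower. Depth limits genes of 10 to 100 scaled counts most, where the median SE was 0.32.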

Other observations

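The globin genes HBB and HBA2 were present in 1 library only. Control replicate 2 held 373 scaled counts of HBB and 289 of HBA2, and the other 5 libraries held 0 of both; HBA1 stood at 23.1 in control replicate 2 and at most 1.10 elsewhere. These were the only 2 genes with at least 50 scaled counts in 1 library and at most 2 in each of the other 5, by a rule chosen after their values were seen. Both counted among the falls (adjusted p = 0.0402 and 0.0440 by limma), which rested on that library: without it the adjusted p was 1 for both.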
